A study of Homo sapiens with 6 samples.

Results

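The oxidative phosphorylation genes in this data set are the 102 genes, of 14034 in the count table, whose symbols name a subunit or NDUF-type assembly factor of the respiratory chain or the ATP synthase (symbols starting with NDUF, UQCR, COX4 to COX8, ATP5, MT-ND, MT-CO, MT-CY or MT-ATP, and SDHA to SDHD). Of these, 89 are encoded in the nucleus and 13 in mitochondrial DNA, which is its complete set of protein genes. All 102 were tested. Genes of these families that the deposited table does not list, such as COX7A1 and COX8C, could not be members. The study measured messenger RNA in JHH-4, an established human hepatocellular carcinoma line with epithelial-like growth and a wild-type label, in 3 libraries labelled Control and 3 libraries from cells carrying a plasmid with the primary transcript of hsa-miR-885-5p. The sources used here do not say what the controls received. The submitters describe the 3 libraries of a group as technical replicates, so every p-value below measures only the spread between such replicates of 1 line. The level of the microRNA itself was not analysed here.

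Oxidative phosphorylation couples electron transfer from NADH (complex I) or succinate (complex II) through complexes III and IV to oxygen with proton pumping, and the proton gradient drives ATP synthesis by complex V. Complex II is wholly nuclear encoded, while the other 4 complexes combine subunits from both genomes. Mitochondrial protein genes are transcribed as long polycistronic RNAs from the heavy and light strands and cut apart at flanking tRNAs, with MT-ND6 the only protein gene on the light-strand RNA, whereas each nuclear subunit has its own promoter. Liver is rich in mitochondria, and hepatocellular carcinoma is known for varied shifts between respiration and glycolysis.

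Total counts ran from 46382314 to 56409821 per library. In the ratio of mitochondrial to nuclear members, control libraries 2 and 3 lay at opposite ends of the controls (8.82 and 5.40, with 7.11 in library 1). The counts of mitochondrially encoded and nuclear members called are given with and without control library 3. For single genes whose call changes without it, both values are given only in part. Among markers of cell type, KRT8, KRT18 and KRT19 were present (summed level 3342 to 3440 CPM, counts scaled by library size, in controls and 2811 to 2907 with the microRNA), while of 15 hepatocyte markers only 6 were in the table and the table did not list ALB, APOB or HNF4A. The summed level of those 6 ran from 80.4 to 87.5 CPM in controls and from 53.3 to 57.7 CPM with the microRNA. Of 5 leukocyte markers 2 were in the table, at 118 to 139 CPM against 125 to 128 CPM, and of 7 fibroblast or endothelial markers 3 were, at 13.7 to 15.9 CPM against 24.9 to 25.6 CPM. The part of these shifts in the results below was not tested. In bulk RNA, fewer cells of a type and less RNA per cell cannot be told apart.

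The overexpressed microRNA is shown first because its seed defines which transcripts it could pair with. The mature strand maps to chr3:10394531-10394552 on the minus strand (RefSeq, GRCh38.p14), and its seed, bases 2 to 8, is in capitals.
hsa-miR-885-5p: uCCAUUACacuacccugccucu
A perfect match to that seed in a transcript reads GTAATGG (7mer-m8), or GTAATGGA (8mer) with an A opposite the first base. With 1 UTR per gene, the longest 3′ UTR annotated in GENCODE 29 (GRCh38), such a match was found in 4 of 89 nuclear members (4.49%) and in 986 of 12308 genes (8.01%). The nuclear members have short 3′ UTRs, with a median of 449 bases against 1390 bases for all genes. Among the members with a match were NDUFA10, with an 8mer at chr2:239960947-239960954 (minus strand), and COX5A, at chr15:74920317-74920323 (minus strand), and UQCRB, both with a 7mer-m8. The windows of NDUFA10 and COX5A follow as messenger-sense DNA letters, with the match in capitals.
NDUFA10: ctgtagtatagGTAATGGAgttgggggaag
COX5A: taccaagccatGTAATGGtaacttggact
None of these 3 passed the test. NDUFA10, COX5A and UQCRB had log2 fold changes of 0.09, -0.04 and 0.02 with adjusted p of 0.103, 0.610 and 0.836 (edgeR's quasi-likelihood test, Benjamini-Hochberg over all 14034 genes, threshold 0.05, as for every adjusted p below). Without control library 3 NDUFA10 was called higher (0.11, adjusted p = 0.0404), while COX5A and UQCRB were still not called. A site in these letters is a description of the sequence only.

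As a group, the mitochondrially encoded genes were the most abundant members. In controls their summed counts were 5.43%, 6.37% and 4.45% of all counts in libraries 1, 2 and 3, and in the miR-885-5p libraries 4.80%, 4.46% and 4.82%. The 89 nuclear members together took 0.763%, 0.722% and 0.825% in the controls and 0.808%, 0.788% and 0.788% with the microRNA. Both measures overlapped between groups, since control library 3 lay on the side of the miR-885-5p libraries.

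Set against each other within a library, mitochondrially encoded over nuclear counts came to 7.11, 8.82 and 5.40 in the controls and 5.94, 5.66 and 6.12 in the miR-885-5p libraries. The log2 ratio was lower by 0.24 with the microRNA (difference -0.24), which is less than the spread between replicates (pooled SD 0.25). The control range of this ratio enclosed all 3 miR-885-5p libraries. Without control library 3 the difference was -0.42, and without control library 2 it was -0.07, so its size depended on which control was counted. The plot of counts by library shows this spread.

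**Figure D1:**
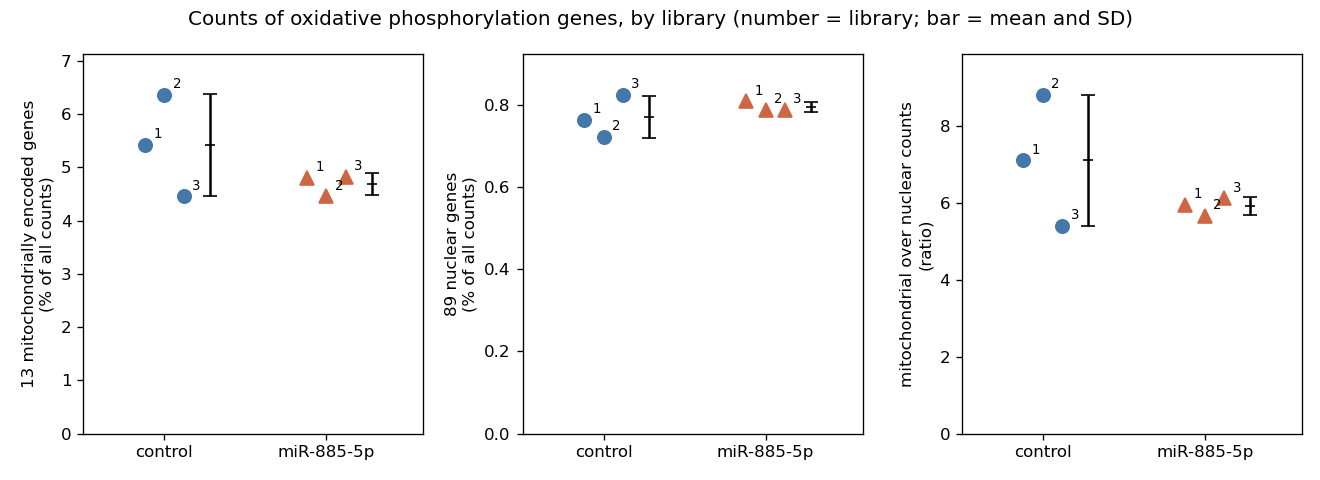
Summed counts of the 13 mitochondrially encoded genes (left, % of all counts), of the 89 nuclear members (middle, %) and their ratio (right) in each library, with the library number beside each point and the group mean and SD as a bar. The controls run from 5.40 to 8.82 in the ratio and enclose the miR-885-5p libraries, which lie between 5.66 and 6.12.

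The controls differed among themselves in all mitochondrial genes at once. Control library 2 had the highest level of the controls for 13 of 13 mitochondrially encoded genes and control library 3 the lowest for 13 of 13. Each library was also compared with the mean of the other libraries of its group. The median difference over the 13 genes was 0.39 in control library 2 and -0.42 in control library 3 on the log2 scale. In control library 1 it was 0.03. Nuclear members leaned the other way, with 64 of 89 highest in control library 3 and 55 of 89 lowest in control library 2. Among the miR-885-5p libraries, library 2 was lowest for 13 of 13, with a median difference of -0.13 from the other libraries of that group. A shift shared by all 13 genes was thus present among libraries of the same group.

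Against that spread, 4 mitochondrially encoded genes fell and none rose. Over all genes 26.5% were called lower and 26.3% higher, so 4 of 13 lower (30.8%) is near the share among all genes. The estimate was below 0 for 13 of 13 genes, with a median log2 fold change of -0.26 against 0.00 over all genes. At an unadjusted p under 0.05, 5 were lower and 0 higher. DESeq2 and limma-voom each called the same 4 lower and 0 higher. Complete separation, with all 3 miR-885-5p libraries below all 3 controls, was seen in these 4 genes and in 30.3% of all genes. Since the 13 genes share libraries and precursor RNAs, they are not 13 independent observations.

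The 4 genes were complex I subunits MT-ND6, MT-ND5 and MT-ND1 and the catalytic complex IV subunit MT-CO1. MT-ND6 measured 469, 525 and 419 CPM in control libraries 1 to 3 and 291, 259.6 and 284 CPM in miR-885-5p libraries 1 to 3. MT-ND6 fell by 0.76 on the log2 scale (SE 0.08, adjusted p = 2.74e-05), with no overlap between groups. For MT-ND5 the controls gave 1993, 2215 and 1734 CPM and the miR-885-5p libraries 1162, 1143 and 1219 CPM. MT-ND5 fell by 0.75 on the log2 scale (SE 0.08, adjusted p = 2.87e-05). Both genes sit next to each other at the end of the complex I gene run, MT-ND5 on the plus strand of chrM:12337-14148 and MT-ND6 on the minus strand of chrM:14149-14673 (GRCh38). The sources used here do not say whether these libraries kept strand. Without it, reads from a gene and its antisense neighbour cannot be told apart, and the ratio of MT-ND6 to MT-ND5 counts was 0.238 ± 0.003 in controls and 0.237 ± 0.012 with the microRNA (SD, n = 3).

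MT-ND1, the membrane subunit that forms part of the ubiquinone channel, lies at chrM:3307-4262. MT-ND1 was at 2147, 2465 and 1691 CPM in the controls and at 1431, 1329 and 1445 CPM with the microRNA. MT-ND1 fell by 0.58 on the log2 scale (SE 0.11, adjusted p = 0.00145). MT-CO1, at chrM:5904-7445, carries the oxygen-reducing site of complex IV. MT-CO1 measured 14269, 16453 and 11832 CPM in control libraries 1 to 3 and 10998, 10751 and 11474 CPM in miR-885-5p libraries 1 to 3. MT-CO1 fell by 0.36 on the log2 scale (SE 0.10, adjusted p = 0.0108). The highest miR-885-5p library, at 11474 CPM, was only just under the lowest control. Each of these 4 calls held in all 16 alternative fits.

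The other 9 mitochondrially encoded genes did not pass the test. For MT-CYB the controls gave 2815, 3323 and 2286 CPM and the miR-885-5p libraries 2455, 2299 and 2316 CPM. This gene encodes cytochrome b, the only mitochondrial subunit of complex III, and its estimate was -0.25 (SE 0.11, adjusted p = 0.0721). MT-CO3 and MT-ND2 had estimates of -0.26 and -0.27 with adjusted p of 0.0869 and 0.101. MT-ND4L (-0.30, adjusted p = 0.109) and MT-ND4 (-0.19, adjusted p = 0.184) came from overlapping reading frames. MT-CO2, MT-ATP6, MT-ATP8 and MT-ND3 had estimates from -0.10 to -0.06 with adjusted p of at least 0.593. In all 9 the control and miR-885-5p libraries overlapped. Leaving out control library 3 raised the number called lower to 10, all but MT-ND3, MT-ATP6 and MT-ATP8, and leaving out control library 2 left the estimate below 0 in only 9 of 13. Without miR-885-5p library 2 it was below 0 in 11 of 13.

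**Figure D2:**
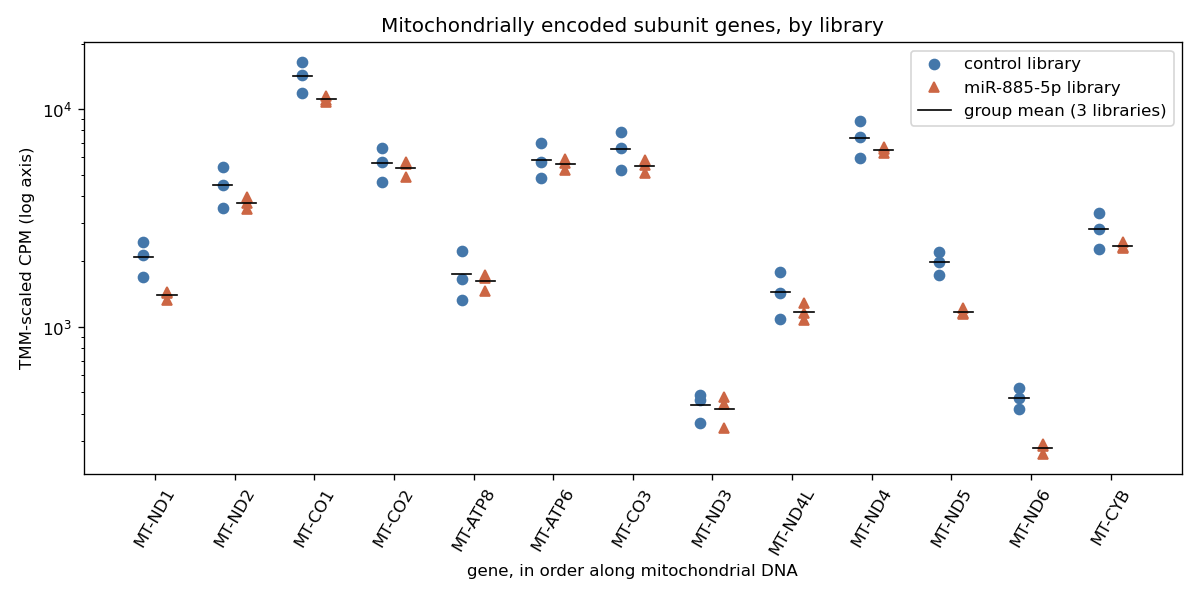
Levels (CPM scaled by edgeR's TMM factors, log axis) of the 13 mitochondrially encoded genes in each library, in their order along mitochondrial DNA, with the mean of the 3 libraries as a line. The groups are separate for MT-ND1, MT-CO1, MT-ND5 and MT-ND6 and overlap for the other 9.

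On the deposited FPKM scale (fragments scaled by transcript length and library size) the control means were 8268 ± 1241 for MT-CO1, 7721 ± 1340 for MT-ATP6, 7549 ± 1899 for MT-ATP8, 7526 ± 1387 for MT-CO3 and 7413 ± 1223 for MT-CO2 (SD, n = 3). Next came MT-ND4 (4830 ± 871), MT-ND4L (4354 ± 1009) and MT-ND2 (3862 ± 787). Below them came MT-CYB (2211 ± 380), MT-ND1 (1975 ± 341), MT-ND3 (1138 ± 159), MT-ND5 (983 ± 107) and MT-ND6 (807 ± 80.7). All 13 genes moved together from control to control, as given above, so neighbours in the order were also compared within libraries. MT-CO1 was 1.10, 1.04 and 1.08 times MT-ATP6 in the controls and 0.826, 0.901 and 0.897 times it with the microRNA. The order of MT-ATP6, MT-ATP8, MT-CO3 and MT-CO2 changed from control to control. From MT-CO2 down, each gene was above the next in all 3 controls and all 3 miR-885-5p libraries, by 1.06 to 1.18 times for MT-ND4 over MT-ND4L and 1.09 to 1.15 times for MT-ND4L over MT-ND2 in the controls. With the microRNA MT-CO1 was at 6733 ± 157 FPKM, under MT-ATP6 at 7708 ± 332 FPKM. MT-ND5 was then at 608 ± 15.2 FPKM and MT-ND6 at 497 ± 22.9 FPKM. The highest nuclear member, ATP5F1B, was at 499.9 ± 52.1 FPKM in controls.

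Relative to the other mitochondrial transcripts, the same 4 genes had lower shares, and this measure does not depend on how libraries are scaled or on the overall mitochondrial level. MT-ND5 made up 3.61%, 3.40% and 3.86% of mitochondrially encoded counts in the controls and 2.46%, 2.62% and 2.56% with the microRNA. MT-ND6 went from a mean of 0.863% ± 0.065 to 0.602% ± 0.011 and MT-ND1 from 3.81% ± 0.069 to 3.04% ± 0.0098 (SD, n = 3). MT-CO1 went from 25.8% ± 0.56 to 24.0% ± 0.69. In each of the 4 all 3 miR-885-5p libraries were below all 3 controls.

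Shares that were higher in all 3 miR-885-5p libraries than in all 3 controls were those of MT-CO2 (10.2% ± 0.093 to 11.7% ± 0.49), MT-ATP6 (10.6% ± 0.24 to 12.1% ± 0.29) and MT-ND4 (13.4% ± 0.12 to 14.1% ± 0.26). The other 6 genes overlapped. A share that is higher here shows unequal change within the mitochondrial RNA, not more of that RNA. With 3 libraries against 3, the smallest two-sided p an exact permutation test can give is 0.1, so no test was made of these shares.

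Ratios to neighbours on the heavy-strand RNA were taken only for genes already called lower, so they describe those calls again. The ratio of MT-ND1 to MT-ND2 counts was 0.471 ± 0.016 in controls and 0.377 ± 0.014 with the microRNA. MT-ND5 to MT-ND4 was 0.270 ± 0.020 and 0.181 ± 0.003, and MT-ND5 to MT-CYB, its neighbours on either side, was 0.711 ± 0.046 and 0.499 ± 0.027. MT-CO1 to MT-CO2 was 2.52 ± 0.041 and 2.06 ± 0.146. None of these ratios overlapped between groups, which is no separate evidence because of how the pairs were picked. Reads of nuclear copies of mitochondrial sequence may have been counted with either locus, and the sources used here do not say how they were treated.

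**Figure D3:**
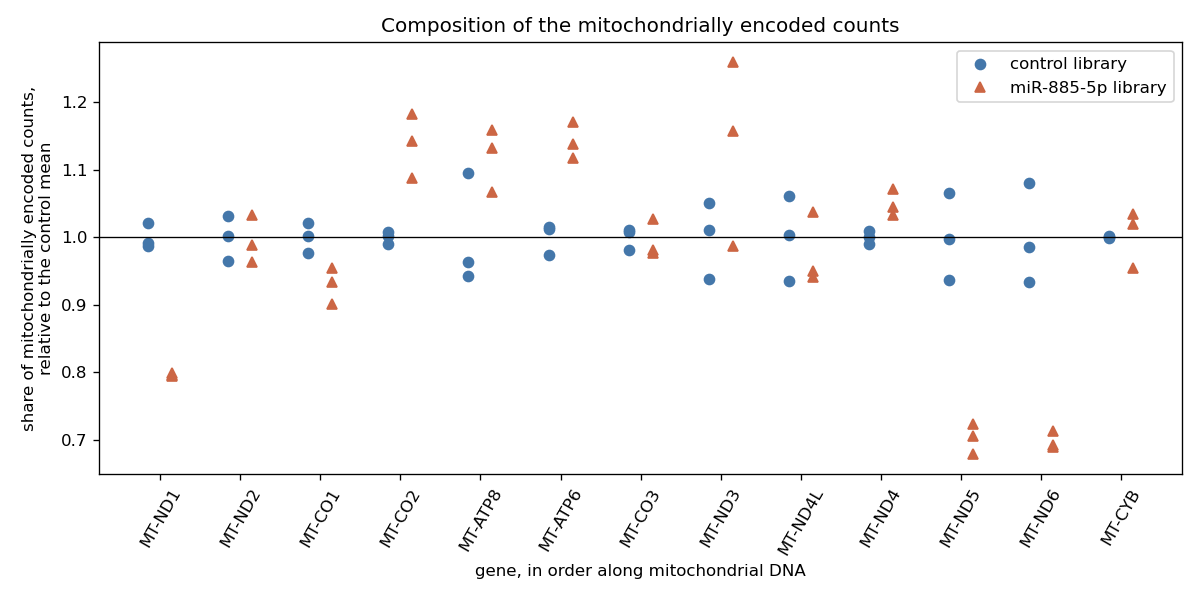
Share of each gene in all mitochondrially encoded counts of a library, divided by the mean share of the 3 controls, in order along mitochondrial DNA. MT-ND1, MT-ND5 and MT-ND6 lie at 0.80, 0.70 and 0.70 of the control share with the microRNA, MT-CO1 at 0.93, and MT-CO2, MT-ATP6 and MT-ND4 at 1.14, 1.14 and 1.05.

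Of the 89 nuclear members, 12 rose, 25 fell and 52 did not pass the test. That is 13.5% higher, against 26.3% of all genes, and 28.1% lower, against 26.5% of all genes. Their median log2 fold change was 0.00 and none changed by 1.5 times or more, whereas 2124 of 14034 genes did. Changes were small in size: the median of their absolute log2 fold changes was 0.14, and that of all genes 0.24. All 3 miR-885-5p libraries lay above all 3 controls for 14 members, with 30.2% among all genes, and below for 26, with 30.3%. The count of rising members rested on control library 3: without it 28 nuclear members rose and 26 fell (31.5% and 29.2%), against 27.2% and 27.5% of all genes in that fit. The lower share of risers among the members was thus not seen without that library. Those 28 were 3 core and 9 accessory subunits of complex I, 2 of complex II, 3 of complex III, 8 of complex IV and 3 of complex V. With scaling by total counts 21 rose and 20 fell (23.6% and 22.5%), beside 4357 higher and 3134 lower among all genes (31.0% and 22.3%).

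Complex I is the largest group, with 45 nuclear members, of which 5 rose and 13 fell. That is 11.1% higher and 28.9% lower, against 26.3% and 26.5% of all genes. Its 7 core subunits, which carry the flavin, iron-sulfur clusters and quinone pocket, included 2 that fell. NDUFS8 and NDUFV2 both carry iron-sulfur clusters. NDUFS8 was at 108, 111 and 106 CPM in the controls and at 89.8, 91.9 and 88.7 CPM with the microRNA. NDUFS8 fell by 0.26 on the log2 scale (SE 0.04, adjusted p = 0.000309). NDUFV2 fell by 0.14 on the log2 scale (adjusted p = 0.0136), a call lost in 2 of 16 alternatives.

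Among 30 accessory subunits, which surround and stabilise the core, 4 rose and 8 fell (13.3% and 26.7%, with 26.3% and 26.5% among all genes). NDUFB5 measured 44.6, 40.2 and 51.9 CPM in control libraries 1 to 3 and 64.7, 65.2 and 63.4 CPM in miR-885-5p libraries 1 to 3. This membrane-arm subunit showed the largest rise of any nuclear member (log2 fold change 0.50, SE 0.08, adjusted p = 0.000578). For NDUFB6 the controls gave 22.6, 19.4 and 29.2 CPM and the miR-885-5p libraries 35.4, 32.1 and 31.4 CPM. NDUFB6, of the same arm, rose with a wider SE (log2 fold change 0.47, SE 0.13, adjusted p = 0.0102), and control library 3 was the control nearest to the miR-885-5p libraries. NDUFAB1, the mitochondrial acyl carrier protein, and NDUFS4 also rose, by 0.31 and 0.28 on the log2 scale.

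The largest fall in the accessory group was in NDUFS6, a zinc-binding subunit of the NADH-oxidising arm. NDUFS6 was at 58.7, 57.8 and 52.4 CPM in the controls and at 43.6, 37.5 and 41.6 CPM with the microRNA. NDUFS6 fell by 0.46 on the log2 scale (SE 0.07, adjusted p = 0.000347). NDUFS5 measured 57.4, 59.2 and 58.6 CPM in control libraries 1 to 3 and 45.9, 37.8 and 46.9 CPM in miR-885-5p libraries 1 to 3. NDUFS5, a subunit on the intermembrane side, fell without overlap (log2 fold change -0.42, SE 0.08, adjusted p = 0.00114). The other 6 that fell, NDUFA3, NDUFA6, NDUFA11, NDUFA12, NDUFB10 and NDUFC2, had log2 fold changes from -0.33 to -0.13. NDUFB9, the accessory subunit with the highest FPKM (204 in both groups), was not called (-0.06, adjusted p = 0.368). The remaining 17 had estimates from -0.13 to 0.22.

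Assembly factors named NDUFAF build complex I but are not in the finished enzyme. Of 8, 3 fell and 0 rose by edgeR, by DESeq2, by limma-voom and at an unadjusted p under 0.05. By edgeR that is 37.5% lower, with 26.5% lower and 26.3% higher among all genes. For NDUFAF6 the controls gave 14.3, 13.5 and 12.6 CPM and the miR-885-5p libraries 10.4, 11.3 and 10.8 CPM. NDUFAF6 fell by 0.31 on the log2 scale (SE 0.08, adjusted p = 0.0091). NDUFAF8, the partner of the arginine hydroxylase NDUFAF5, fell by 0.32 on the log2 scale (adjusted p = 0.0185), with 66.3, 55.3 and 75.5 CPM in the controls and 52.5, 54.8 and 51.0 CPM with the microRNA. In 3 of 16 alternatives that call was lost. NDUFAF2 fell by 0.24 on the log2 scale, a call lost in 4. Without control library 1 only 1 of the 8 fell, and that was NDUFAF6. Another 10 complex I assembly factors outside the NDUF names split into 3 higher and 3 lower (30% each, near the shares among all genes). Among them were FOXRED1 (-0.41, adjusted p = 8.44e-05) and ACAD9 (-0.16, adjusted p = 0.0180).

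Complex II, succinate dehydrogenase, has 4 subunits, and 1 of them fell (25%, with 26.5% among all genes). SDHB carries the iron-sulfur clusters that pass electrons from the flavin to the quinone site and lies at chr1:17018722-17054170. SDHB was at 149, 142 and 134 CPM in the controls and at 102, 94.9 and 106 CPM with the microRNA. SDHB fell by 0.49 on the log2 scale (SE 0.05, adjusted p = 5.34e-05), with a wide gap between groups. SDHA measured 164, 164 and 169.8 CPM in control libraries 1 to 3 and 159.7, 154 and 159.7 CPM in miR-885-5p libraries 1 to 3. SDHA, the flavoprotein, was below the controls in all 3 libraries by a margin too small to pass (-0.07, SE 0.04, adjusted p = 0.122). The membrane anchors SDHC and SDHD had estimates of 0.09 and 0.15 (adjusted p of 0.0982 and 0.144), and their groups overlapped. Without control library 3 both rose, and in the main fit 0 of the 4 subunits rose, as by DESeq2, by limma-voom and at an unadjusted p under 0.05. Of 10 assembly factors of complexes II and III, 2 rose and 4 fell (20% and 40%, with 26.3% and 26.5% among all genes). SDHAF3, which helps SDHB mature, was at 1.24, 1.04 and 1.16 CPM in controls and 4.05, 3.78 and 3.36 CPM with the microRNA (log2 fold change 1.70, SE 0.19, adjusted p = 4.75e-05), the largest change in any list examined here. UQCC1, a complex III assembly factor, fell by 0.18 on the log2 scale (adjusted p = 0.00482).

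Complex III, which passes electrons from ubiquinol to cytochrome c, had 9 nuclear members with 1 riser and 2 that fell. Their shares were 11.1% and 22.2%, with 26.3% and 26.5% among all genes. UQCRC2 is a core protein of the matrix side. For UQCRC2 the controls gave 107, 103 and 111 CPM and the miR-885-5p libraries 121, 122 and 124 CPM. UQCRC2 rose by 0.19 on the log2 scale (SE 0.04, adjusted p = 0.00239). The small subunits UQCR10 and UQCR11 moved the other way. UQCR10 was at 53.5, 48.9 and 57.4 CPM in the controls and at 45.1, 38.4 and 42.1 CPM with the microRNA. UQCR10 fell without overlap (log2 fold change -0.35, SE 0.07, adjusted p = 0.00324) and UQCR11 fell by 0.19 on the log2 scale (adjusted p = 0.00967). UQCRH, the hinge protein and the most abundant of the group at 163 ± 18.5 FPKM in controls, had an estimate of 0.00 (SE 0.08, adjusted p = 0.998). Its intronless copy UQCRHL was at only 3.16 to 4.37 CPM, and reads of such near-identical copies are uncertain. CYC1, the cytochrome c1 subunit outside the symbol rule, and the carrier CYCS were not called (-0.09 and -0.05, adjusted p of 0.105 and 0.577).

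In complex IV, cytochrome c oxidase, 6 of 13 nuclear members rose and 1 fell (46.2% and 7.69%, with 26.3% and 26.5% among all genes). COX5B measured 69.7, 58.2 and 84.8 CPM in control libraries 1 to 3 and 97.3, 94.4 and 88.6 CPM in miR-885-5p libraries 1 to 3. COX5B, a zinc-binding matrix subunit, rose (log2 fold change 0.40, SE 0.11, adjusted p = 0.0122), and control library 3 was the control nearest to the miR-885-5p libraries. For NDUFA4 the controls gave 73.1, 70.3 and 90.1 CPM and the miR-885-5p libraries 107, 97.9 and 93.5 CPM. NDUFA4 carries a complex I name but is a subunit of complex IV, and it also rose (log2 fold change 0.35, SE 0.09, adjusted p = 0.00741). COX7A2L was at 101, 89.6 and 103 CPM in the controls and at 114, 113 and 116 CPM with the microRNA. COX7A2L, which joins complex III to complex IV in supercomplexes, rose by 0.22 on the log2 scale (SE 0.05, adjusted p = 0.00581). COX4I1, COX6C and COX7A2 rose by 0.19, 0.32 and 0.25, with the COX7A2 groups overlapping and its call lost in 5 of 16 alternatives. Over the alternatives the number that rose ran from 4 to 8.

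COX7B2, a paralog of COX7B with low expression, was the member that fell. COX7B2 measured 5.38, 4.14 and 6.82 CPM in control libraries 1 to 3 and 3.69, 3.64 and 4.05 CPM in miR-885-5p libraries 1 to 3. The estimate was -0.52 (SE 0.19, adjusted p = 0.0384), and the call was lost in 6 of 15 alternatives. Among these was the fit without control library 3 (-0.33, adjusted p = 0.144). COX6A1, the most abundant member of the group at 295 ± 11.5 FPKM, was not called (-0.05, adjusted p = 0.391), and neither were COX5A, COX6B1, COX7B, COX7C and COX8A. With control library 3 left out, COX6B1 and COX7C were called higher (0.17 and 0.35, adjusted p of 0.00948 and 0.000975). The table did not list the isoforms COX4I2, COX6A2, COX6B2, COX7A1 and NDUFA4L2, so they were not tested. Summed over the 13 members the level was 1134, 1071 and 1207 CPM in controls and 1287, 1214 and 1245 CPM with the microRNA. All 3 miR-885-5p libraries were above the 3 controls. Of the complex IV subunits encoded in mitochondrial DNA, the catalytic MT-CO1 fell, as given above, and MT-CO2 and MT-CO3 were not called. Whether nuclear and mitochondrial subunits of the complex differed in their response was not tested. The 22 listed complex IV assembly factors, 1 of them (SCO2) with 2 rows, gave 7 rises and 4 falls, with the smallest adjusted p in COA7 (-0.41, adjusted p = 0.000116) and COX15, a heme A synthase (0.27, adjusted p = 0.00118).

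In complex V, the ATP synthase, 8 of 18 members fell (44.4%, with 26.5% among all genes) and 0 rose by edgeR. At an unadjusted p under 0.05, 3 were higher, and DESeq2 and limma-voom each called 1 higher, while scaling by total counts gave 3. The 8 were still called lower under every scaling and test tried. ATP5IF1 is the inhibitor protein that blocks reverse ATP hydrolysis, and it fell most. For ATP5IF1 the controls gave 61.4, 70.0 and 57.6 CPM and the miR-885-5p libraries 45.5, 38.2 and 43.5 CPM. ATP5IF1 fell by 0.57 on the log2 scale (SE 0.08, adjusted p = 0.000323). ATP5MF was at 62.6, 64.3 and 56.9 CPM in the controls and at 45.9, 39.0 and 46.6 CPM with the microRNA. ATP5MF, a membrane subunit near the dimer interface, fell nearly as far (log2 fold change -0.48, SE 0.08, adjusted p = 0.000461). ATP5PB, ATP5PD, ATP5MG, ATP5F1C, ATP5MC1 and ATP5MC3 fell by 0.20 to 0.41 on the log2 scale. The catalytic subunit ATP5F1B, the most abundant nuclear member, did not pass. ATP5F1B measured 997, 927 and 1112 CPM in control libraries 1 to 3 and 994, 1014 and 985 CPM in miR-885-5p libraries 1 to 3. Its estimate was -0.02 (SE 0.06, adjusted p = 0.790), and its partner ATP5F1A had one of 0.08 (adjusted p = 0.369). Without control library 3 ATP5F1A was called higher (0.17, adjusted p = 0.0135) and ATP5F1B was not.

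The genes ATP5MC1, ATP5MC2 and ATP5MC3 encode precursors of the same mature c subunit that forms the rotor ring, and they were looked at as a family after their values were seen. Their log2 fold changes were -0.41, 0.11 and -0.20 with adjusted p of 0.000550, 0.0585 and 0.0110. ATP5MC1 supplied 20.4%, 19.2% and 22.0% of the family's counts in controls and 16.3%, 17.0% and 16.1% with the microRNA. For ATP5MC2 the share was 45.6%, 49.0% and 42.6% in controls and 52.9%, 51.0% and 53.3% with the microRNA. Neither share overlapped between groups. ATP5F1E, the small epsilon subunit, had the largest positive estimate of complex V (0.40, SE 0.16, adjusted p = 0.0541), with control library 3 at 88.9 CPM, inside the range of the miR-885-5p libraries. With that library left out, ATP5F1E was called higher (0.64, adjusted p = 9.58e-05). Of 4 complex V assembly factors ATPAF1 fell (-0.30, adjusted p = 0.000461) and 0 rose by edgeR, with 1 higher at an unadjusted p under 0.05. That was FMC1 (0.38, adjusted p = 0.0695). The 1 of 4 called lower is 25%, with 26.5% among all genes.

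**Figure D4:**
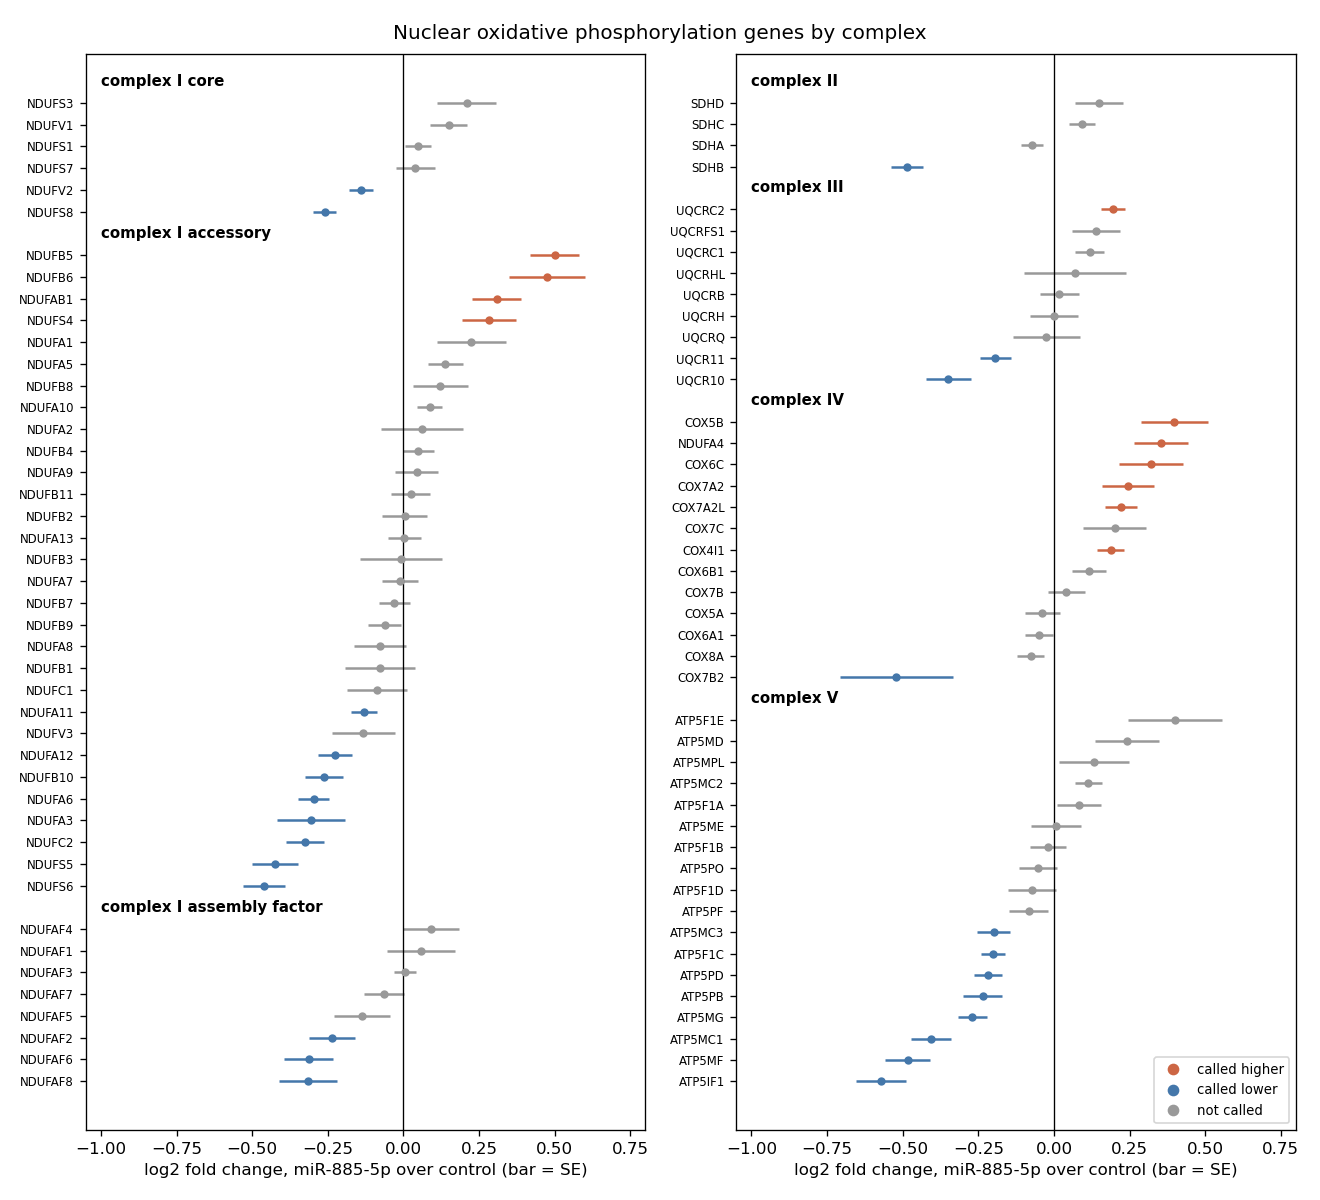
Log2 fold change, miR-885-5p over control, with its SE as a bar, for the nuclear members by complex, with 1 member not shown, coloured by call at an adjusted p of 0.05. Complex IV has 6 called higher and 1 called lower, and complex V has 8 called lower and 0 called higher.

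Position in the genome went along with part of the falls. In all, 6 nuclear members lie on the short arm of chromosome 1 (ATP5IF1, SDHB, NDUFS5, ATP5PB, UQCRH and UQCRHL). Of these, 4 fell and 0 rose, with 0 higher at an unadjusted p under 0.05, and their median log2 fold change was -0.33. Among all 694 tested genes on that arm 387 fell, 76 rose and the median was -0.23. On the long arm SDHC was not called, and of all 575 genes there 271 rose and 99 fell. The assembly factors COA7 and ATPAF1, both lower, are also on the short arm. With these 6 members set aside, 12 of 83 rose and 21 fell. The part of the chromosome arm in the members' changes was not tested.

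Transcript length differed between the members and other genes. Nuclear members had a median length of 1006 bases, taken from the ratio of counts to FPKM, against 3226 bases for all genes. Control library 3 ran above the other controls by a median of 0.10 on the log2 scale for genes of 500 to 1000 bases and below them, at -0.02, for genes over 4000 bases. For miR-885-5p over control, the median log2 fold change in these length classes was 0.01 and 0.02 over all genes and -0.03 and 0.06 over the nuclear members. With the length trend taken out of each library, the nuclear median became -0.07, and 12 rose and 28 fell (13.5% and 31.5%). The median over all genes was -0.05 in that fit, with 22.2% higher and 31.5% lower. The share of falls among the members was thus that of all genes.

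Promoters of the nuclear members are shown because many hold motifs of known regulators, a property that the choice by symbol did not use. NRF1, GABP (an ETS factor) and YY1 are known regulators of respiratory genes. RefSeq promoter windows (GRCh38.p14, 250 bases before to 50 after the start) were matched for 74 of 89 members and for 10106 genes in all. Among those not matched were ATP5F1B, ATP5F1D, ATP5MC3, ATP5MF, COX6C, NDUFA4, NDUFAF6, NDUFB5, NDUFB9, NDUFC2, NDUFS5, SDHC, UQCRB and UQCRHL. On either strand, the NRF1 core CGCANGCG was in 25 of the 74 (33.8%) and in 19.1% of all promoters, the ETS core CCGGAAGT in 10 (13.5%) and 9.13%, and the YY1 core AAGATGGC in 11 (14.9%) and 5.52%. At least 1 of the 3 was in 36 of 74 (48.6%) and in 30.0% of all promoters.

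Members with an NRF1 core counted 1 riser and 8 that fell among 25 (median -0.05), and those without it 7 and 12 among 49 (median 0.00). The windows with an NRF1 core of the largest falls and of the only rise follow, 5′ to 3′ on the gene's strand, with that core in capitals. NDUFS6 is at chr5:1801157-1801456 (plus), UQCR10 at chr22:29767119-29767418 (plus) and NDUFAB1, whose core is on the opposite strand, at chr16:23596267-23596566 (minus).
NDUFS6: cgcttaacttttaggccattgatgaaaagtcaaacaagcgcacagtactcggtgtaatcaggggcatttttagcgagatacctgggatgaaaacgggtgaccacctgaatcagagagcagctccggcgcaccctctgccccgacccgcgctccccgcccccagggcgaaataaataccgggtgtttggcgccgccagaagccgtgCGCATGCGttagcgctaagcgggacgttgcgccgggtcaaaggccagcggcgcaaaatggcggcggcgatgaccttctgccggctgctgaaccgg
UQCR10: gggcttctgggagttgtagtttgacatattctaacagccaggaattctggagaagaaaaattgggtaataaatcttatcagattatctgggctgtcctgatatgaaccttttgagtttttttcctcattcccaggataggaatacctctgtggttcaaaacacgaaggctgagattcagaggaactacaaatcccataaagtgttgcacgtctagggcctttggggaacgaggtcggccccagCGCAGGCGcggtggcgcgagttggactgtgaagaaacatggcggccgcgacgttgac
NDUFAB1: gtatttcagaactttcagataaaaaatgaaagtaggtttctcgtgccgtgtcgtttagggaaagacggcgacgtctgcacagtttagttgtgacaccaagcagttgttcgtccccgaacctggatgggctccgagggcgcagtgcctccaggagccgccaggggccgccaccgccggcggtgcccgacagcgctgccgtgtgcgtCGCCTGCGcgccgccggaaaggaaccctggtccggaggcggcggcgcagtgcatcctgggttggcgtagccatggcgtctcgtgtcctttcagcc
The core begins 45 bases before the start in NDUFS6 and NDUFAB1 (position -45) and 7 before it in UQCR10 (position -7). These 3 genes had log2 fold changes of -0.46, -0.35 and 0.31. They were picked by direction, so nothing about the core follows from their signs.

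The regulators themselves were mixed, with 4 of 12 higher and 4 lower (33.3% each, with 26.3% and 26.5% among all genes). For PPARGC1A the controls gave 15.6, 15.1 and 14.9 CPM and the miR-885-5p libraries 22.8, 20.1 and 22.1 CPM. This coactivator of mitochondrial biogenesis rose (log2 fold change 0.51, SE 0.07, adjusted p = 0.000205), and ESRRA, a nuclear receptor that it binds, rose by 0.47 on the log2 scale (adjusted p = 0.00397). GABPB1, the activating partner of GABPA, fell (log2 fold change -0.44, SE 0.08, adjusted p = 0.00122). PPARGC1B and PPRC1, of the same list, also fell (log2 fold changes of -0.58 and -0.19, adjusted p of 0.00662 and 0.0417), with the PPRC1 groups overlapping. NRF1 and YY1 were not called (-0.09 and 0.07). ESRRG and TFEB, at control means of 2.05 and 1.92 CPM, rose (0.82 and 0.73, adjusted p of 0.0045 and 0.0161). MYC fell (-0.23, adjusted p = 0.0124). ESRRA, ESRRG, TFEB, MYC, PPARGC1B, PPRC1, NRF1 and YY1 were named after their values were seen.

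Genes that copy and transcribe mitochondrial DNA also moved in both directions, 3 of 16 higher and 5 lower. That is 18.75% and 31.25%, with 26.3% and 26.5% among all genes. TWNK, the replicative helicase, was at 63.3, 61.3 and 58.7 CPM in controls and 76.4, 76.7 and 82.0 CPM with the microRNA and rose (log2 fold change 0.36, SE 0.05, adjusted p = 0.000188). SSBP1, which coats single-stranded mitochondrial DNA, fell (log2 fold change -0.24, SE 0.05, adjusted p = 0.00158). POLRMT, the mitochondrial RNA polymerase, rose by 0.23 on the log2 scale and its cofactor TFAM was not called (-0.13, adjusted p = 0.0612). These last 2 were named after their values were seen.

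Of 16 genes for mitochondrial RNA processing and stability, 2 rose and 1 fell (12.5% and 6.25%, with 26.3% and 26.5% among all genes). LRPPRC, which stabilises mitochondrial messengers, was at 413, 399 and 424 CPM in controls and 467, 462 and 444 CPM with the microRNA (log2 fold change 0.15, SE 0.04, adjusted p = 0.00803). ELAC2, the nuclease that cuts the 3′ end of mitochondrial tRNAs, fell by 0.15 on the log2 scale (adjusted p = 0.0142). Of 7 carriers for ADP, ATP and phosphate, 2 rose and 2 fell (28.6% each, near the shares among all genes). SLC25A6, an ADP/ATP carrier, rose (log2 fold change 0.48, SE 0.04, adjusted p = 4.89e-06) and VDAC1, the outer membrane channel, fell (log2 fold change -0.35, SE 0.04, adjusted p = 2.99e-05). Of 7 other subunits and electron carriers 0 rose, also at an unadjusted p under 0.05, and 2 fell (28.6%, with 26.5% among all genes). ETFDH, which feeds electrons from fatty acid oxidation to ubiquinone, was at 16.9, 18.1 and 16.9 CPM in controls and 12.6, 9.77 and 10.6 CPM with the microRNA (log2 fold change -0.65, SE 0.10, adjusted p = 0.000363), and HIGD2A fell by 0.15 (adjusted p = 0.0468).

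The authors' deposited table has its own p-values and log2 fold changes. At a p under 0.05 it has 18 nuclear members higher and 25 lower, and 0 mitochondrially encoded members higher and 4 lower. The share of all genes at that p is not given here, so these counts cannot be read against a background. No member that edgeR called had the opposite sign there. Both sets of values come from the same libraries, so this is no independent check.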

How the data were processed

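RNA-seq of 6 JHH-4 libraries was analysed, 3 Control and 3 miR-885-5p, grouped by sample title. Per the labels' protocols, libraries were made from total RNA with a NEBNext Ultra kit; the sources used here do not give strand, counting tool or annotation release. GRCh38, DESeq2 1.38.3, HISAT2 2.0.4 and StringTie 2.2.1 appear, without role or order, in the submitters' processing notes. Per the file headers, the authors deposited whole-number counts and FPKM per gene and library, with p-values and log2 fold changes whose test is not named. The table had been filtered before deposit: the smallest sum over 6 libraries was 194 counts.

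The whole table of 14034 genes was fitted in R 4.3.3 by edgeR 4.0.16, using TMM scaling and the quasi-likelihood F test after filterByExpr, which removed 0 genes, with Benjamini-Hochberg adjustment and a threshold of 0.05, and only the members and listed genes are printed. SE is the absolute log2 fold change over the square root of F. Lengths were taken from counts over FPKM. Replicates were not copies of each other: their counts gave a chi-square of 7.95 to 40.5 for each degree of freedom within groups and of 96.0 to 136 between them. The fits were tested on simulated counts. Positions and 3′ UTRs came from GENCODE 29 (GRCh38), and promoters and the microRNA from RefSeq. The sources used here do not say how reads of near-identical copies were counted, so genes with processed copies or nuclear copies of mitochondrial DNA are uncertain.

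Members, lists and motifs were chosen with earlier results of these data known. Named genes were all mitochondrially encoded members and SDHA to SDHD; in each other class the 2 largest rises, the 2 largest falls and the highest FPKM; isoforms; the 2 smallest adjusted p of each further list; members with a seed site; and members on the short arm of chromosome 1, divided from the long arm at the widest gap between annotated genes. Other genes named were chosen after their values were seen. The values of some genes under this rule are not reported here. Alternatives were DESeq2 1.42.0, limma-voom (limma 3.58.1), RLE, total-count and upper-quartile scaling, no filter, a filter at 5 CPM in 3 libraries, a replicate block, removal of a length trend, leaving out members on chromosome 1 and leaving out each library.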

Additional observations from a re-analysis of the deposited data

How the results depend on the processing

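All 4 mitochondrially encoded calls held in all 16 alternative fits, with 0 higher in each. The number called lower ran from 4 to 10 when 1 library was left out at a time, with 10 without control library 3. Nuclear members called higher numbered 21 with total-count scaling and ran from 9 to 28 when 1 library was left out, with 28 without control library 3, against 12; the cause was not tested. Nuclear members called lower ran from 20 to 28 over all alternatives, against 25. The nuclear median log2 fold change became -0.071 with the length trend removed. In that fit the median over all genes also moved down, to -0.05. Among all genes, 3697 higher and 3726 lower became 4357 and 3134 with total-count scaling (median 0.05) and 3119 and 4422 with the length trend removed (median -0.05). No member called by edgeR took the opposite sign in any alternative. The log2 ratio of mitochondrial to nuclear counts ran from -0.42 to -0.07 when 1 library was left out and was -0.24 without ATP5F1B, an alternative added after the data were seen. Over the named genes, 863 alternative values kept direction and side of the threshold, 27 lost the call, 18 gained it and 19 changed sign. Those 19 were in genes not called under either setting, and the cause was not tested. UQCRH was at -0.0011 with limma-voom, -6.2e-05 with RLE scaling and -0.071 with the length trend removed, where UQCRB was at -0.028. With total-count scaling ATP5F1B was at 0.027 and COX5A at 0.0097. When 1 library was left out, the range was -0.19 to 0.064 for MT-CO2, -0.18 to 0.065 for MT-ND3, -0.18 to 0.087 for MT-ATP6, -0.27 to 0.12 for MT-ATP8, -0.080 to 0.065 for UQCRH, -0.035 to 0.079 for UQCRB, -0.047 to 0.18 for UQCRHL and -0.080 to 0.052 for ATP5F1B.

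With the replicate number as a block, 12 nuclear members were called higher and 24 lower, 4 mitochondrially encoded members were lower and 0 higher, and all genes gave 3329 higher and 3366 lower. Same-numbered libraries did not deviate together (correlations of -0.18, -0.06 and -0.15), so the numbers were not taken as pairs. Depth bears most on the least abundant member, UQCRHL, at 3.16 CPM in its lowest library.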
